A study of Mus musculus with 24 samples.

Results

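Of 24 microarrays of mouse blastocyst pools, 4 carried signal of the 2-cell-stage genes Zscan4a, Zscan4b and Zscan4f and 20 did not. An array was called positive where the scanner software marked a probe as well above background for at least 2 of these 3 genes, and negative otherwise. All 3 genes were marked on each of the 4 positive arrays and none of them on any of the 20 negative arrays. The positive arrays were HC2 replicates 1 and 4 and HC6 replicates 3 and 4. The sets were chosen by the measured signals of these genes, so those signals are given below as a description, and every test concerns other genes.

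Zscan4 genes encode zinc finger proteins with a SCAN domain. They are transcribed in the mouse embryo at the 2-cell stage, when the embryonic genome is switched on, and again in short bursts in a small share of embryonic stem cells, where they have been linked to telomere lengthening. In both settings they appear together with Tcstv and Usp17l genes, with the predicted gene families around Gm2022 and Gm4340, and with the MERVL retrovirus. In embryonic stem cells they lie downstream of the homeobox factor Dux and of Dppa2 and Dppa4. A blastocyst, the stage just before implantation, consists of an epiblast, a primitive endoderm and an outer trophectoderm, and is past the stage at which these genes are normally transcribed.

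The series measured gene expression in 6 conditions known only by the codes HC1 to HC6, with 4 pools each, and its title names bisphenol A, a plastic monomer, and membrane estrogen receptors. The labels give neither the agent nor the dose behind a code, nor the strain or age of the mice, nor which code is the control. Each array received label made from 2 ng of RNA of 1 pool, for which 15 expanded blastocysts had been frozen (20 in HC6). In pools, fewer cells of a type and less RNA per cell cannot be told apart, and in HC6 the code and the pool size cannot be told apart. Whether different animals supplied the pools is not labelled, and p-values here reflect only pool-to-pool spread, which may be technical.

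Values are log2 of the background-subtracted signal minus the array's 75th percentile, so that 0 is the level of that percentile. The share of spots above background ranged over arrays from 38.6% to 49.7%, and the 75th percentile of the signal lay between 65.9 and 181. The number of arrays limits the precision. By condition the positive arrays were 2 of 4 in HC2, 2 of 4 in HC6 and 0 of 4 in each other condition. By slide they were 1 of 8, 1 of 8 and 2 of 8, and both rows of the slides held 2 of 12.

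The probes are shown because their sequences decide which transcripts a signal can come from. Each line gives 30 of a probe's 60 bases, 5′ to 3′, as the array files list them, and capitals mark the bases at which paired probes differ. The Zscan4a and Zscan4c probes share a run of 53 bases, and they are shown at the end where they part.
Zscan4a: aaatgcattgcctcttcagacatctcatAT
Zscan4c: aaatgcattgcctcttcagacatctcatGC
Zscan4b: aattaccacagatctgactgaagtatctaa
Zscan4f: atgttgcaagtaaattgtactgtcccaata
The array files place these probes on chromosome 7 of the mouse build mm9, at chr7:11379679-11379738 for Zscan4a (minus strand), chr7:11595751-11595810 for Zscan4c (plus strand), chr7:11486107-11486166 for Zscan4b (minus strand) and chr7:11987608-11987667 for Zscan4f (plus strand). The accessions listed for the Zscan4b probe belong to 4 Zscan4 genes in the RefSeq table, and so do those of the Zscan4f probe. The 3 markers are therefore near-identical copies whose probes can share transcripts, and the rule counts them as 3 genes although their signals need not be independent.

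Zscan4f, one of the copies, stood at -0.88 in HC2 replicate 1, -1.43 in HC2 replicate 4, 3.66 in HC6 replicate 3 and -1.76 in HC6 replicate 4. In the 20 negative arrays its lowest value was -5.71, its median -5.16 and its highest -3.68. HC6 replicate 3 was far above the other positive arrays, which lay close together, and the sets did not overlap. Zscan4b followed the same order, with -0.86 and -1.37 in the HC2 pools and 3.60 and -1.60 in the HC6 pools, against a highest negative value of -3.82. Zscan4a was weaker, at -1.68 and -3.26 in the HC2 pools and 2.51 and -3.36 in the HC6 pools, and its highest negative value was -4.51. Because no negative array was well above background, a fold is only a bound, taken against the higher of a negative array's own value and its lowest signal well above background. By that bound the positive arrays were on average at least 7.57-fold higher for Zscan4f, at least 7.81-fold for Zscan4b and at least 2.98-fold for Zscan4a. HC6 replicate 3 sets much of this: without it the bounds were 3.17-fold for Zscan4f, 3.36-fold for Zscan4b and 1.19-fold for Zscan4a. With another positive array left out they were 9.05-fold to 11.1-fold, 9.41-fold to 11.2-fold and 3.14-fold to 4.64-fold.

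**Figure D1:**
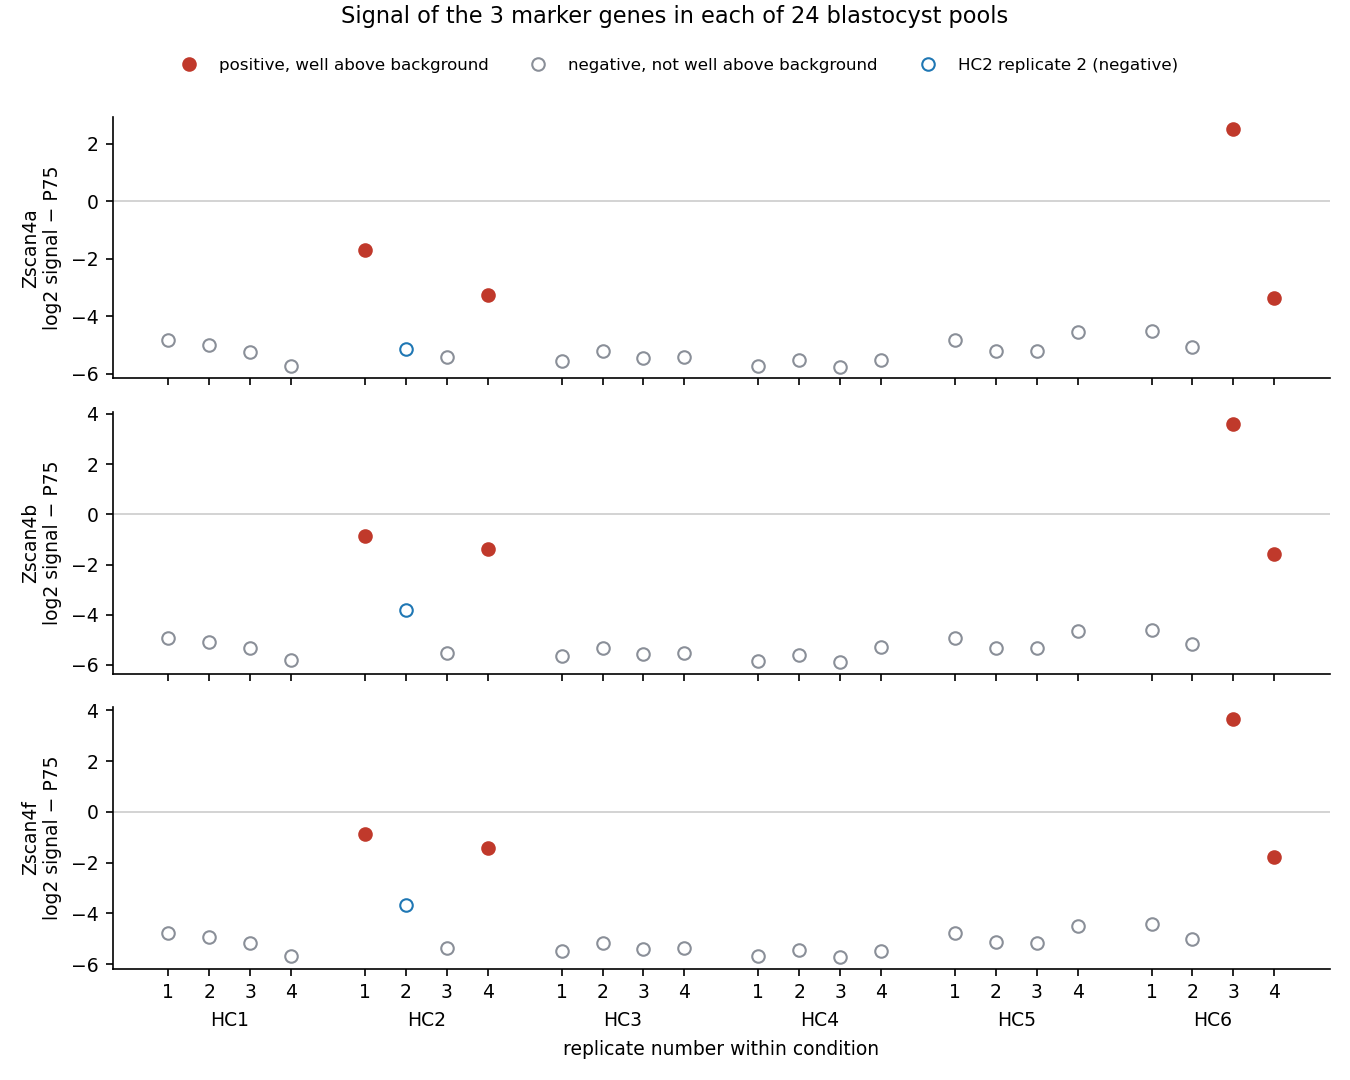
Log2 signal minus the array's 75th percentile (P75) of Zscan4a, Zscan4b and Zscan4f in each of 24 pools, by condition and replicate number; filled red points are positive arrays, open points are arrays where the probe was not well above background, and blue is HC2 replicate 2. HC6 replicate 3 stands highest in all 3 panels, and HC2 replicate 2 is the highest negative array for Zscan4b and Zscan4f.

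The remaining probes of the Zscan4, Tcstv and Usp17l families followed the markers only in part. Of 14 probes named for these families, 12 were well above background in HC6 replicate 3, 9 in HC6 replicate 4, 8 in HC2 replicate 1 and 4 in HC2 replicate 4. The negative arrays had between 0 and 6 of them, the 6 being in HC2 replicate 2. Tcstv3, a 2-cell-stage gene, was at 2.00 and -0.69 in the positive HC2 pools and at 4.48 and 3.57 in the positive HC6 pools. It was well above background on 7 of 20 negative arrays too, with a median of -3.13 and a highest value of 1.46 in HC2 replicate 2, so its sets overlapped.

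Usp17la belongs to a family of deubiquitinating enzymes. It was at -0.48 in HC2 replicate 1, -5.41 in HC2 replicate 4, 1.36 in HC6 replicate 3 and -0.86 in HC6 replicate 4. Negative arrays reached 0.89 in HC2 replicate 3 and 0.43 in HC2 replicate 2, both above 3 of the 4 positive arrays. The Zscan4d probe was not well above background on any array. A Zscan4c probe was well above background on 1 negative array, HC1 replicate 2, at -1.98, where none of the 3 markers was.

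At the edge of the rule, the positive array with the lowest Zscan4f signal was HC6 replicate 4, at -1.76, and the nearest negative array was HC2 replicate 2, at -3.68. HC2 replicate 2 was not well above background for any of the 3 markers, but it was so for 6 family probes, all of them Tcstv or Usp17l.

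Outside the 3 families, 18389 genes were compared between the sets with limma and Benjamini-Hochberg adjustment. Of these, 3 passed an adjusted p of 0.05, which is 0.0163% of the genes tested; all 3 were higher in the positive arrays and 0 were lower. Before adjustment 1762 genes (9.58%) had p under 0.05, against 919 that chance gives on average; 754 (4.1%) were higher and 1008 (5.48%) lower. The median difference over all genes was 0.02, and 53.2% of the genes tested were higher in the positive arrays. The 95% interval of 85.04% of genes lay within 2-fold in both directions. Every positive array exceeded every negative array for 1 gene (0.00544% of those tested), Dtd1, and lay below every negative array for 1 gene (0.00544%), Tysnd1. Both were named after their values were seen, and neither passed the test (limma adjusted p = 0.510 for both). The filter asked for a detected probe on 4 or more arrays of either set, and 486 genes met it only with the help of positive arrays, having fewer than 4 such negative arrays. Of these 323 were higher in the positive arrays, and 1 of the 3 called genes, TC1593528, is among them. With the filter set on at least 4 negative arrays 2 genes were called of 17906 tested. Over all genes tested 200 differed by more than 1 log2 unit and 111 of those were higher in the positive arrays; among genes well above background on at least 12 arrays it was 51, with 45 higher.

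**Figure D2:**
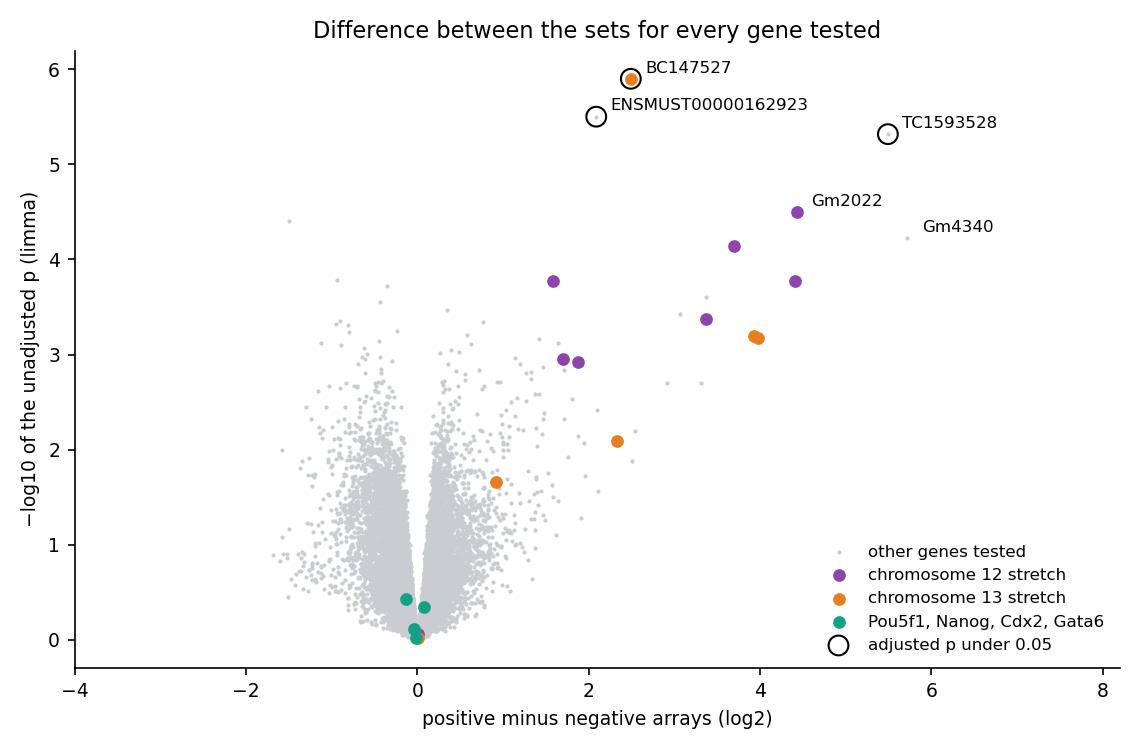
Difference between positive and negative arrays (log2, x axis) against −log10 of the unadjusted p (y axis) for each of 18389 genes; circles mark the 3 genes with an adjusted p under 0.05, and colours mark 2 chromosomal stretches and 4 lineage genes. The largest differences are on the positive side and include genes of both stretches, while Pou5f1, Nanog, Cdx2 and Gata6 lie near 0.

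The 3 called genes are known only by accession numbers and are named although such features fall outside the rule for names. Their probes are shown because one of them nearly matches a Tcstv3 probe, with 4 differences over 58 aligned bases, 3 of which fall in the stretch shown.
TC1593528: actAgcaattaTgggatcttctgtcagctT
Tcstv3: actTgcaattaGgggatcttctgtcagctC
BC147527: gtgtcttcgcagccatctggtttgtgtttg
ENSMUST00000162923: gggcggtgccgttatcatcttccaacactt
The array files place the first 3 on unplaced sequence of mm9 and the last at chr1:85269446-85269502 (plus strand), where their annotation gives a predicted pseudogene.

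BC147527 is a protein-coding gene near Tcstv3 in the RefSeq gene order of chromosome 13. It was at 2.04 in HC2 replicate 1, 0.56 in HC2 replicate 4, 4.05 in HC6 replicate 3 and 3.38 in HC6 replicate 4. The 20 negative arrays ran from -0.40 to 1.72, with a median of -0.10, and all 24 arrays were well above background. HC6 replicates 3 and 4 and HC2 replicate 1 exceeded every negative array, while HC2 replicate 4 was matched or passed by 2 of them. The difference was 2.49 log2 (SE 0.39), or 5.63-fold, with limma adjusted p = 0.0232.

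ENSMUST00000162923 was at 0.06 and 0.71 in the positive HC2 pools and at 0.94 and 0.39 in the positive HC6 pools. It was the most even of the 3 called genes among the positive arrays (SD 0.38, n = 4). The negative arrays ran from -3.14 to 0.34 with a median of -1.56, and only HC2 replicate 2 reached the positive range. The difference was 2.09 log2 (SE 0.35), or 4.25-fold, with limma adjusted p = 0.029.

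TC1593528 was at 1.54, -1.29, 3.74 and 3.23 in HC2 replicates 1 and 4 and HC6 replicates 3 and 4. It was well above background on 3 of 20 negative arrays, which ran from -5.60 to 1.14 with a median of -3.77, and so it met the filter only through the positive arrays, where it is high. Its difference of 5.49 log2 (SE 0.94, limma adjusted p = 0.0295) is taken mostly against signals at background, and with the filter on negative arrays it was not tested. Given its probe, the signal may come from Tcstv3 and is not counted as independent of that family.

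These calls depended on single arrays. Without HC2 replicate 1, HC6 replicate 3 or HC6 replicate 4, each left out alone, 0 genes were called. With HC1 replicate 2 or HC5 replicate 2 left out there was 1 (0.00544% of the genes tested). There were 6 (0.0326%) without HC2 replicate 4 and 18 (0.0979%) without HC2 replicate 2. With condition as a block 0 genes passed, and the smallest adjusted p among the 3 was 0.258.

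**Figure D3:**
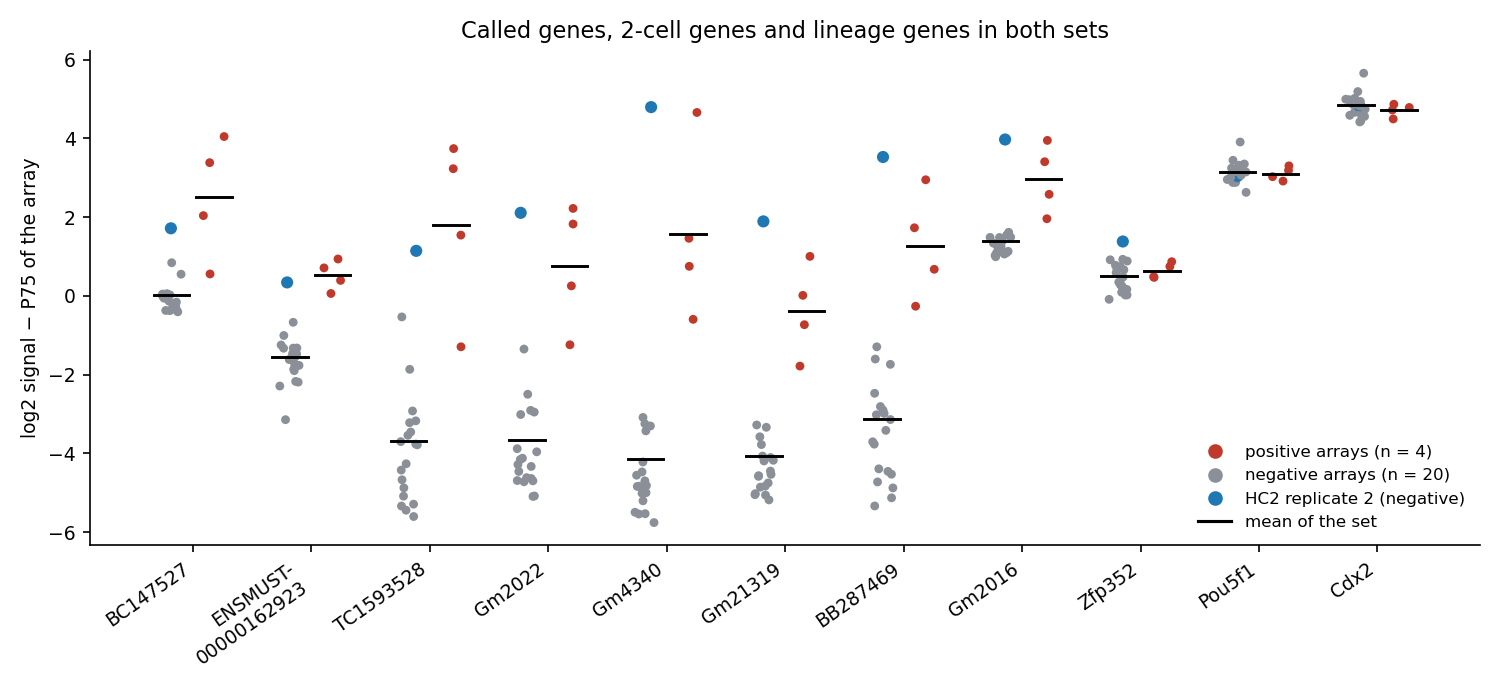
Log2 signal minus P75 of 11 genes in the 4 positive (red) and 20 negative (grey) arrays, with HC2 replicate 2 in blue and a black line at each set's mean. In Gm4340, BB287469, Gm21319 and Gm2016 the blue point is the highest of all 24 arrays, while Zfp352, Pou5f1 and Cdx2 overlap in both sets.

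A block of uncalled differences lay in a stretch of chromosome 12 between Snw1 and Adck1 in the RefSeq order. This stretch was singled out after its values were seen, and other regions were not compared. It holds 2-cell-stage predicted genes such as Gm2022 and Gm2016, members of a repeated family whose copies may share signal. All 8 tested genes there had a difference above 0 on this scale, with a median of 2.62 against 0.02 over all genes tested, and 0 passed the test. Of the 8, 3 (Gm8300, Gm21319 and Gm5039) met the filter only with positive arrays, so neither the count nor the median supports a direction; the median of the other 5 was 1.70. Under other scalings of the arrays 1 of the 8, Gm16381, had a difference just below 0. Gm2022 was at 0.26 and -1.24 in the positive HC2 pools and at 2.22 and 1.83 in the positive HC6 pools. Its negative arrays had a lowest value of -5.09, a median of -4.22 and a highest value of 2.11, and 5 of them were well above background. The difference was 4.43 log2 (SE 0.87, limma adjusted p = 0.144).

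Gm2016 was well above background on all 24 arrays and so is measured on both sides. It was at 2.58, 1.96, 3.95 and 3.41 in the positive arrays in the order above, and 19 of the 20 negative arrays lay between 0.99 and 1.61, below all 4. The other one, HC2 replicate 2, was at 3.97 and was the highest of all arrays. The difference of 1.58 log2 (SE 0.36) had limma adjusted p = 0.313. BB287469, with 0.68, -0.26, 2.95 and 1.73 in the positive arrays, likewise had its highest value in HC2 replicate 2, at 3.53, while the other negative arrays reached -1.29. Gm16381, in the same stretch, was at about the same level in both sets (difference 0.01, limma adjusted p = 0.964).

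The genes around Tcstv1 and Tcstv3 on chromosome 13 were also singled out after their values were seen. All 6 tested genes had a difference above 0 on this scale, with a median of 2.41, and 1, BC147527, passed. Of the 6, 2 (Gm20767 and D13Ertd608e) met the filter only with positive arrays, and the median of the other 4 was 1.71. The smallest, that of AF067063, was 0.01 log2 (SE 0.22, limma adjusted p = 0.986) and lay below 0 under 1 other scaling of the arrays. AF067061, a member of a 2-cell-stage gene family, was at -0.52 in HC2 replicate 1, -5.06 in HC2 replicate 4, 3.15 in HC6 replicate 3 and 1.18 in HC6 replicate 4, and negative arrays reached -0.18. Gm20767 was at 0.59, -5.64, 3.28 and 0.46 in the same order. In both genes HC2 replicate 4 stood among the negative arrays, as it did for Usp17la, although its Zscan4f signal was above that of HC6 replicate 4. The differences were 3.93 log2 for AF067061 (SE 1.00) and 3.97 log2 for Gm20767 (SE 1.02), both with limma adjusted p = 0.471. AF067061 was well above background on 4 of 20 negative arrays and Gm20767 on 3, so these differences are mostly against background and their sizes are uncertain.

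Averaged over members as deviations from each gene's mean, the chromosome 13 stretch stood at 4.00 in HC6 replicate 3, 2.55 in HC6 replicate 4, 1.83 in HC2 replicate 1 and -0.78 in HC2 replicate 4, and at 1.69 in HC2 replicate 2. The chromosome 12 stretch stood at 3.31, 2.53, 2.00 and 0.93 in the same positive arrays. In HC2 replicate 2 it was at 3.54, the highest of 24 arrays, and the next highest negative array was HC5 replicate 3 at 0.14. The 2 stretches therefore ranked the positive arrays alike, but they differed in where HC2 replicates 2 and 4 stood among the other pools. Neither stretch ranked the positive arrays as Zscan4f did.

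**Figure D4:**
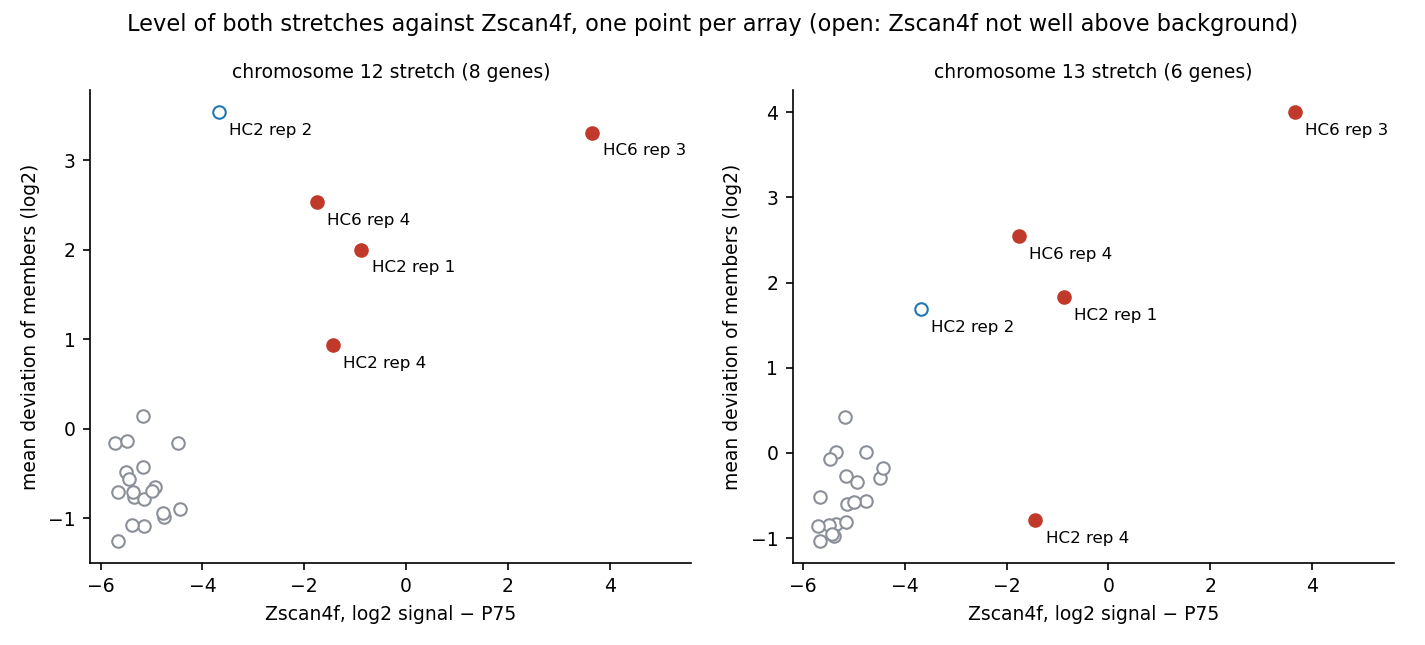
Mean deviation of the tested genes of the chromosome 12 stretch (left, 8 genes) and the chromosome 13 stretch (right, 6 genes) from their 24-array means (y axis, log2) against Zscan4f (x axis, log2 signal minus P75), one point per array. HC2 replicate 2, an open blue point, is the highest array on the left with Zscan4f not well above background, and HC2 replicate 4 lies among the negative arrays on the right.

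HC2 replicate 2, a negative array by the rule, was high for many of these genes. Gm4340, a predicted 2-cell-stage gene whose probe lies on chromosome 10, was at 4.79 in that pool. The positive arrays were at 1.46, -0.59, 4.66 and 0.75, and the other 19 negative arrays had at most -3.08. AA684185, an accession named after its values were seen, was at 4.01 in HC2 replicate 2 and at 1.85, 0.98, 3.14 and 0.72 in the positive arrays, while the other negative arrays reached -0.03. Across the 14 tested genes of both stretches, HC2 replicate 2 was the highest negative array for 11. Over all 18389 genes it was so for 4.69%. The pool and both stretches were singled out after their values were seen, and repeated copies may share signal. Of the stretch genes, 3 of 8 on chromosome 12 and 2 of 6 on chromosome 13 met the filter only with positive arrays. This contrast is therefore a description and supports nothing about the pool. HC2 replicate 2 was the only negative array well above background for Gm4340, which thus met the filter only with positive arrays. Against the other 19 the positive arrays were at least 24.2-fold higher. That bound leaves out the negative pool singled out for its high values, so it supports nothing about Gm4340. The 18 genes called without that pool are 0.0979% of the genes tested, and since the pool was singled out for its high values, that count supports nothing about these genes. In the main comparison the pool stays in the negative set, as the rule gives it.

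A wider list of 2-cell-stage genes outside the 3 families held 49 genes, of which 27 were tested. Of the tested genes 24 had a positive and 3 a negative difference, 0 passed, and the median was 0.27 against 0.02 over all genes. Over all genes tested 53.2% had a positive difference. The list includes Gm2022, Gm4340, Gm2016 and Gm8300, so its higher end repeats the values above. Of its tested members 4 met the filter only with positive arrays; of the other 23, 20 had a positive difference and the median was 0.26. Gm8300, of the chromosome 12 stretch, was at -0.87, -3.02, 0.60 and 0.01 in the positive arrays and at 1.91 in HC2 replicate 2 (difference 3.37 log2, limma adjusted p = 0.451). Zfp352, a zinc finger gene that is among the strongest 2-cell-stage transcripts, was at 0.75, 0.49, 0.87 and 0.47 in the positive arrays and between -0.09 and 1.38 in the negative ones, again highest in HC2 replicate 2. Its difference was 0.14 log2 (SE 0.19, limma adjusted p = 0.815), and the sets overlapped; with its probes averaged the difference was -0.064. The Dux probe was well above background on 0 of 24 arrays.

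Among genes that act upstream of the 2-cell programme none passed the test. Of 15 tested regulators 9 were higher, 6 lower and 0 called, where 53.2% of all genes tested were higher. Dppa2, which with its partner Dppa4 binds the Dux locus, was at 3.71 and 3.37 in the positive HC2 pools and 4.03 and 3.73 in the positive HC6 pools, against a negative median of 3.47 and a highest negative value of 3.93. Its difference was 0.23 log2 (SE 0.14, limma adjusted p = 0.592), and that of Dppa4 was 0.06 (adjusted p = 0.841). The tumour suppressor Trp53 had a difference of -0.41 log2 (SE 0.17, limma adjusted p = 0.510). Of 31 tested repressors of the programme, among them chromatin assembly factors and histone methyltransferases, 20 were higher, 11 lower and 0 called. Lin28a, an RNA-binding repressor of the programme in stem cells, had the smallest p of them, with a difference of -0.26 log2 (SE 0.10, limma adjusted p = 0.510).

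Telomere maintenance and recombination genes, the function with which Zscan4 has been linked, had 32 tested members. Of these 21 were higher and 11 lower, 0 were called, and the median difference was 0.05. Over all genes tested 53.2% were higher. Ctc1, a subunit of the CST complex at chromosome ends, differed by -0.18 log2 (SE 0.06, limma adjusted p = 0.510), but by 0.18 where all its probes were averaged, so its probes disagree. Tinf2, a shelterin subunit, differed by -0.52 log2 (SE 0.20, limma adjusted p = 0.510). Smc1b, a meiotic cohesin subunit, was at -1.83, -1.38, 0.52 and -1.26 in the positive arrays, with only HC6 replicate 3 above the highest negative value of -0.48. Genes of DNA methylation and demethylation, 16 tested, had 9 higher and 7 lower members, 0 called and a median of 0.01.

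No lineage gene of the blastocyst passed the test. Pou5f1, the epiblast factor also called Oct4, was at 3.30 and 2.92 in the positive HC2 pools and at 3.19 and 3.03 in the positive HC6 pools, inside the negative range of 2.63 to 3.91. Its difference was -0.04 log2 (SE 0.14, limma adjusted p = 0.934), that of Nanog was -0.01 (SE 0.17, adjusted p = 0.985), that of the trophectoderm factor Cdx2 -0.13 (SE 0.15, adjusted p = 0.770) and that of the primitive endoderm factor Gata6 0.08 (SE 0.10, adjusted p = 0.811). Epiblast and pluripotency genes had 15 higher and 15 lower members, and trophectoderm genes 15 higher and 16 lower. Of 25 tested primitive endoderm genes 21 were lower in the positive arrays and 4 higher, with a median of -0.17 and 0 called. Over all genes tested 53.2% were higher. Their mean deviation in the positive arrays was between -0.24 and 0.04, inside the range of the negative arrays from -0.65 to 0.46.

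No gene was called lower in the positive arrays, where the smallest limma adjusted p was 0.144. The 8 named genes of smallest p in that direction differed by between -0.24 and -1.12 log2, with limma adjusted p between 0.313 and 0.471, and are given as values. Gml2, a gene of the Ly6 protein family, was at -2.89, -3.19, -2.58 and -3.59 in the positive arrays against a negative median of -2.15. Rbm19, an RNA-binding protein of ribosome assembly, was at 3.06, 2.82, 2.72 and 2.78 against a negative range of 2.95 to 3.19. The others were Acap3, Krtap5-4, Odf3l2, Cyp2d26, Apoc2 and Hspb9. Hspb9, Cyp2d26 and Odf3l2 were well above background on 0 positive arrays, and on 5, 6 and 13 of the 20 negative arrays. They met the filter only through negative arrays, so the sizes of their differences are uncertain.

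Gene groups for stress and for other cells were described the same way, beside the 53.2% of all genes tested that were higher. Of 24 tested heat shock and stress genes 18 were higher, with a median of 0.08 and 0 called. Hspa1a, the inducible HSP70, also an early transcript of embryonic genome activation, was at 0.20, -0.20, 1.70 and 1.80 in the positive arrays against a negative range of -4.13 to 1.86 (difference 1.96 log2, SE 0.78, limma adjusted p = 0.510). Of 33 tested p53 targets and DNA damage genes 18 were higher and 15 lower, and of 35 tested cell cycle genes 25 were higher and 10 lower, with 0 called in both lists and medians of 0.01 and 0.06. Cdkn1c, a cell cycle inhibitor, reached 2.17 in HC6 replicate 4 against a highest negative value of 1.01. Of 20 tested immediate early genes 15 were higher, and of 14 tested oocyte transcripts 6 were higher, with 0 called in both.

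Of 26 cumulus and granulosa markers 8 were tested, and 14 were well above background on no array, Star and Inhba among them. Their summed level, in multiples of the 75th percentile, was 23.1 to 28.8 in the positive and 24.3 to 49.1 in the negative arrays. HC6 replicate 3 nevertheless had the highest mean deviation of this list, 0.57, with Cyp11a1, a steroid synthesis enzyme, at 0.38 against a highest negative value of -1.51. Other members went both ways in that pool. Foxl2 was at 4.25 against a negative median of 4.67 and Vcan at -2.64 against -2.04, while Has2 was at -1.56 against -3.05. HC6 replicate 3 also had the lowest mean deviation of trophectoderm genes, -0.22, and the part of these shifts in its 2-cell-stage signal was not tested. Blood and immune markers had 5 higher and 5 lower of 10 tested, sperm markers 2 higher and 3 lower of 5, and oviduct and uterine markers 1 higher and 5 lower of 6, with 0 called in each. Of 6 tested sex-linked genes 5 were higher, with a median of 0.23 and 0 called. All these counts stand beside 53.2% higher over all genes tested.

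**Figure D5:**
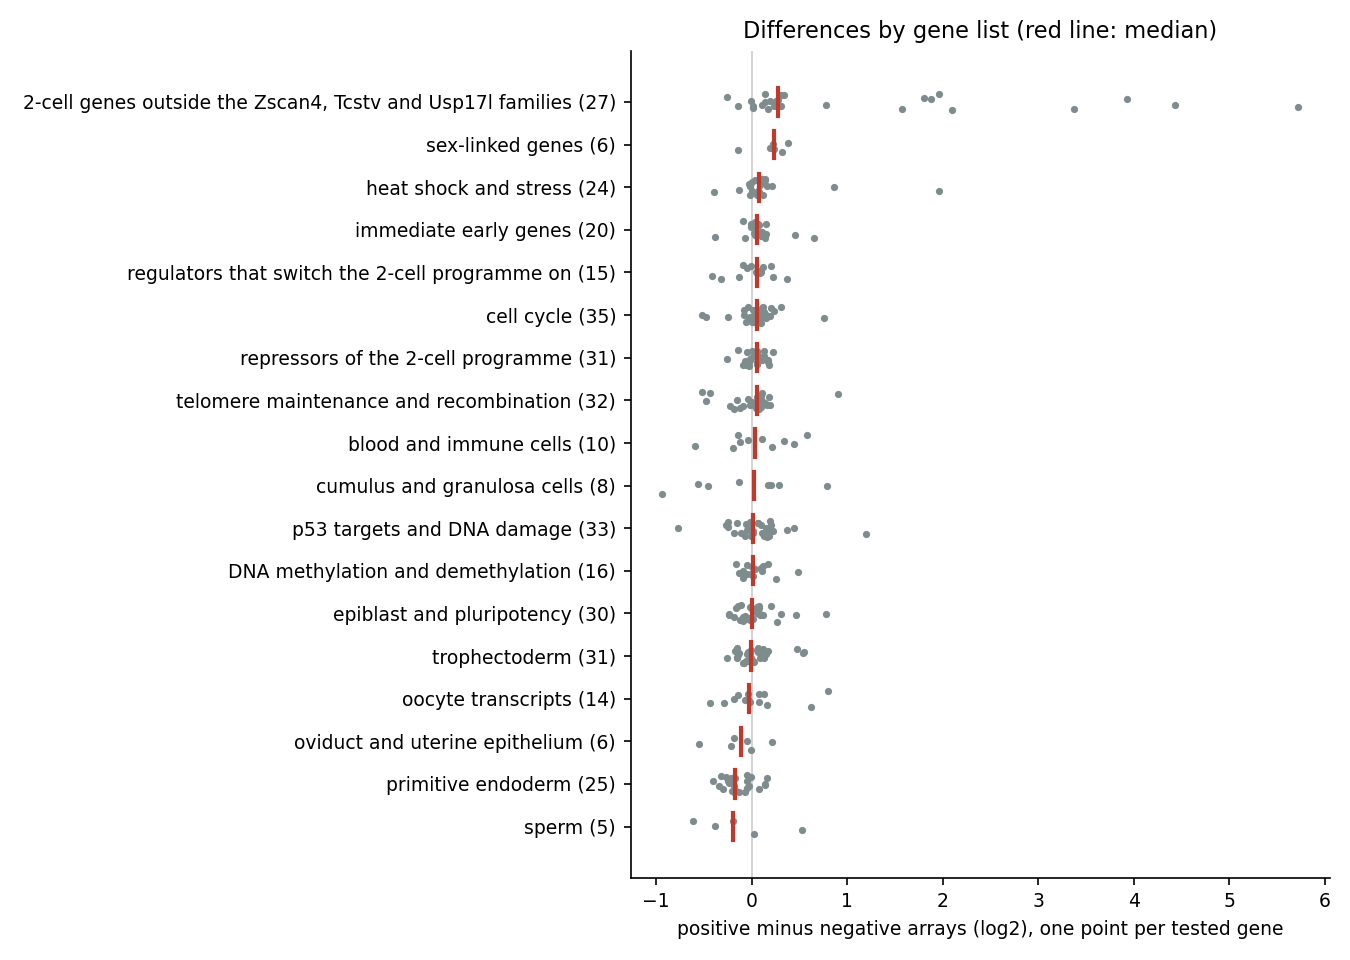
Difference between positive and negative arrays (log2, x axis) for every tested gene of 18 lists, with the list's median as a red line and its number of tested genes in brackets. The 2-cell list has the highest median, 0.27, while the medians of the other lists lie between -0.19 and 0.23. In it 9 genes lie above 1 log2 unit, beside 111 of all 18389 genes tested. Of its 27 tested genes 4 met the filter only with positive arrays, so that count supports no direction.

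Both conditions with positive arrays had negative arrays too. Within HC6 the difference between its 2 positive and 2 negative pools was 3.79 log2 for BC147527. Gm2022 and BB287469 were not well above background in the 2 negative HC6 pools, so that only bounds can be given, at least 4.58 log2 higher for Gm2022 and at least 4.90 for BB287469. Within HC2, where the negative pools include HC2 replicate 2, the difference was 0.57 log2 for BC147527, 0.77 for Gm2022 and -0.32 for BB287469. A test of the difference between the conditions called 0 of 18389 genes (limma, smallest adjusted p = 0.358, with 1025 at an unadjusted p under 0.05), and the adjusted p was 0.764 for BC147527 and 0.867 for Gm2022.

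Neither measure of overall signal passed its test between the sets. The share of spots well above background was 46.3% ± 3.06 (SD, n = 4) in the positive and 44.6% ± 2.94 (SD, n = 20) in the negative arrays, a difference of 1.78 percentage points (exact permutation test over 10626 choices of 4 arrays, two-sided, p = 0.286, adjusted over 2 measures p = 0.380). The log2 of the 75th percentile was 7.09 ± 0.37 (SD, n = 4) and 6.89 ± 0.41 (SD, n = 20), a difference of 0.20 (exact permutation test, two-sided, p = 0.380, adjusted p = 0.380).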

How the data were processed

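Gene expression was measured in 24 pools on one-colour Agilent arrays with 59305 spots other than controls. Per the file headers, the authors' scanner files hold an intensity for each spot, background-subtracted by Agilent Feature Extraction 10.10.1.1, and a deposited flag (other than a level) that marks spots well above background. The authors' deposited value table holds log2 values, and the submitters' processing notes name limma; it served as an alternative. The aligner of the probe coordinates is not given in the sources used here.

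Spots of a probe were averaged without outlier flags, and log2 intensity minus the array's 75th percentile was used. Kept were probes that passed the background flag on 4 or more of the 24 arrays, with at least 2 values per condition and set, and the brightest one stood for a gene. limma 3.58.1 (lmFit and eBayes, R 4.3.3) compared the sets with Benjamini-Hochberg adjustment over all genes outside the Zscan4, Tcstv and Usp17l families, at a threshold of 0.05. The fitting was tested on simulated data. Probe names were matched to RefSeq, by symbol for 41700 probes, accession for 1517 and synonym for 519; 12869 kept the name in the file.

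The sets, the members and the gene lists were chosen with earlier results of these data known. Named were all called genes, in a direction without calls the 8 genes of smallest p, up to 4 members of smallest p per list, and fixed marker and lineage genes; features known only by accession were to be counted, and those named are exceptions made after their values were seen. Alternatives covered normalization, filters, blocks for condition, slide, slide row and replicate number, single arrays left out, and fits within slides and conditions.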

Additional observations from a re-analysis of the deposited data

Results flagged for a closer look

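Among 172 groups of 4 arrays examined, 11 had 1 array far from the others, and chance gives about 1 in 20. In the 4 positive arrays, HC6 replicate 3 stood far above the others for Zscan4b (3.60, next -0.86), for Zscan4f (3.66, next -0.88) and for the sperm protamine Prm1 (-2.10, next -3.68), and below them for the trophectoderm keratin Krt8 (7.75, next 7.92). HC6 replicate 4 was lowest for the lipoprotein gene Apoe (4.54, next 4.88). HC2 replicate 1 was highest for Trp53 (0.45, next -0.29) and for the mean level of oocyte transcripts (0.21, next 0.01), and HC2 replicate 4 for that of p53 targets and DNA damage genes (0.18, next 0.01).

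Within conditions, TC1593528 was low in HC4 replicate 3 (-5.60, next -3.54). BC147527 was high in HC1 replicate 3 (0.84, next 0.04) and in HC3 replicate 2 (-0.059, next -0.34).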

How the results depend on the processing

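With single arrays left out, between 0 and 18 genes were called, at most 0.0979% of those tested. Of these 0 to 17 were higher and 0 to 1 lower in the positive arrays. Without a filter on dim probes or with condition as a block, 0 genes were called, and so 0 higher. So it was in only the conditions with both sets, and within slide 3, HC2 or HC6. The same held for 2 alternatives chosen after seeing the data, only pools of 15 blastocysts (433 genes at an unadjusted limma p under 0.05) and genes near or like the Tcstv genes left out. The other counts that moved by over 1.5 times were 6 (6 higher, 0.0326% of the genes tested) with array weights and 1 (1 higher, 0.00544%) with slide as a block. They were 5 (2 lower, 0.0272%) with slide row as a block and 76 (66 higher, 10 lower, 0.414%) within slide 2. Within slide 2, 1 positive array meets 7 and is assumed to vary like them, so that count supports nothing about the sets. Smaller moves were 4 genes (0.0218%) with a trend in the prior, and 2 each with the filter at 8 arrays (0.0118%), at 12 arrays (0.0124%) and at 4 negative arrays (0.0112%). With the last, TC1593528 was not tested; the other causes were not tested. With the replicate block 2 genes were called (0.0109%). Same-numbered arrays of different conditions correlated between -0.32 and 0.34 (median -0.011), with 25 of 60 pairs over 0.1. The median for other numbers was -0.0074. A range this wide cannot settle whether the numbers pair the pools.

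BC147527 passed in 38 of 49 alternatives (differences 0.57 to 4.08), ENSMUST00000162923 in 33 of 49 (0.99 to 2.63) and TC1593528 in 27 of 46 (2.20 to 7.62). These include sets chosen by at least 1 marker gene and by all 3. Both choices gave the same sets as the main comparison, so a pass there was fixed in advance. Uncalled named genes changed sign in 56 of 1835 combinations of gene and alternative, and list medians in 102 of 980. Gm16381 was at -0.0054 with quantile normalization, -0.012 with normexp, -0.010 with the percentile over always-detected probes, -0.012 with the authors' deposited values, -0.0039 with array weights, -0.12 within slide 2, -0.0029 within slide 3, -0.13 within HC6, and -0.042 to 0.046 with arrays left out. AF067063 was at -0.0090 with that percentile, -0.26 with condition as a block and in only the conditions with both sets, -0.0026 with the slide block, -0.065 with the replicate block, -0.43 within slide 3, -0.54 within HC2, -0.036 in pools of 15, and -0.11 to 0.17 with arrays left out. With probes averaged, Ctc1 was at 0.18 and Zfp352 at -0.064. Nanog was at 0.011 with the slide block, 0.13 with the replicate block, 0.40 within slide 1, and -0.12 to 0.12 with arrays left out. Within slide 1 Cdx2 was at 0.14, Pou5f1 at 0.37 and Zfp352 at -0.035, and Pou5f1 ran from -0.10 to 0.025 with arrays left out. Within slide 3 Cyp11a1 was at -0.28, Dppa4 at -0.074 and Zfp352 at -0.081. Within HC2 BB287469 was at -0.32, D13Ertd608e at -1.03, Gm5039 at -0.19, Dppa4 at -0.14, Gm2016 at -0.39, Gm20767 at -0.10, Gm8300 at -0.56, Smc1b at -0.0069 and Zfp352 at -0.20. Dppa4 was at -0.10 in pools of 15 and ran from -0.028 to 0.16 with arrays left out. The share of spots well above background differed by -0.958 points within slide 1 and -1.12 within HC2, and the log2 75th percentile by -0.14 within slide 1 and -0.072 within slide 2.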
